A study of Mus musculus with 18 samples.

Results

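The genes described here are 8 regulators of the circadian clock. Arntl, Clock, Npas2 and Rora encode its activators, while Nfil3, Bhlhe40, Bhlhe41 and Ciart encode proteins that compete with or repress activators at the E-box and the D-box. These are DNA elements through which the clock drives its targets. The genes were chosen by name, for their place in this circuit and with the storage results of these same libraries already known. They are 8 of the 34989 genes in the files. Hence the storage differences of the members are given as a description, and their adjusted p values, which come from fits over all genes, are not independent support. All 8 genes passed the filter on low counts. The libraries were made from hearts of C57B/L6 mice aged 12 weeks by the labels, while the study's methods state a younger age. The labels give no sex, and the methods name both. Each heart was infused with histidine-tryptophan-ketoglutarate (HTK), a cardioplegic preservation solution, kept in ice-cold HTK for 0, 4 or 8 h (cold ischemic storage, CIS), and then perfused ex vivo with Krebs buffer for 1 h. The left ventricle (LV) and the right ventricle (RV) were then frozen separately. Thus 6 groups of 3 libraries were taken to come from 9 hearts, where the replicate number of the labels was read as the heart number. The hearts at 0 h received HTK infusion and perfusion too, so that no group was untreated myocardium. The perfusate was buffer without blood cells. The hour of the day at excision is not given in the sources used here, and the time elapsed since excision grew with storage, so elapsed time and CIS itself cannot be told apart.

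In the mammalian clock, ARNTL (also called BMAL1) pairs with CLOCK or with its paralog NPAS2, and the pair activates genes with an E-box, among them the Per and Cry repressors, which then shut the pair down. A linked loop controls Arntl itself, where RORA activates and the NR1D (REV-ERB) proteins repress through a shared response element. A further layer runs through the D-box, where the PAR bZIP proteins DBP, TEF and HLF activate and NFIL3 (E4BP4) represses. BHLHE40 (DEC1) and BHLHE41 (DEC2) occupy E-boxes without activating them, and CIART (CHRONO) binds ARNTL and represses it. Heart muscle runs this clock on its own, and several of these genes are also known to respond to hypoxia, glucocorticoids or cytokines.

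In the mouse genome (GRCm38, GENCODE M21) all 8 are protein-coding genes. Arntl (ENSMUSG00000055116.8) spans chr7:113207465-113314126 and Npas2 (ENSMUSG00000026077.15) chr1:39193731-39363236 on the plus strand. Rora (ENSMUSG00000032238.17, chr9:68653786-69388246) and Bhlhe40 (ENSMUSG00000030103.11, chr6:108660629-108666925) lie on the plus strand too. On the minus strand lie Clock (ENSMUSG00000029238.11, chr5:76209868-76304792), Nfil3 (ENSMUSG00000056749.7, chr13:52967209-52981073), Bhlhe41 (ENSMUSG00000030256.11, chr6:145858243-145865558) and Ciart (ENSMUSG00000038550.10, chr3:95878503-95882251).

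The promoter sequences below are shown because they hold the letters through which members of this circuit are known to act on each other, the E-box for the activator pair and its competitors and the ROR element for RORA and the NR1D proteins. A match is a description of the letters and not a binding site measured here. The reference sequence (RefSeq, GRCm38.p6) was searched on both strands from 250 bases before to 50 bases after each start for the E-box CACGTG, the ROR element TAGGTCA or TGGGTCA, the D-box TTATGTAA or TTACGTAA and the cAMP response element TGACGTCA. Promoters were matched for 7 of the 8 members, all but Bhlhe40. Ciart carried 3 E-boxes, which start at -116, -58 and -44 relative to the start, Bhlhe41 carried 1 E-box at -153, and Nfil3 carried 1 ROR element, read on the opposite strand, at -12. Arntl had 1 ROR element at +31 of its second annotated start. Of all 32851 promoters searched, 7.15% held an E-box and 0.088%, or 29, held 3 or more, whereas 6.45% held a ROR element, 1.06% a D-box and 1.79% a cAMP response element. No searched letters were found in this window for Clock, Npas2, Rora or the first annotated start of Arntl. Capitals mark the matched element in each line. The lines give the strand of the gene, 5′ to 3′, with the Arntl site at chr7:113207531-113207557 (plus strand), Nfil3 at chr13:52981040-52981289 (minus), Bhlhe41 at chr6:145865421-145865670 (minus) and Ciart at chr3:95882229-95882478 (minus).
Arntl: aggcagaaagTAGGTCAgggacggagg
Nfil3: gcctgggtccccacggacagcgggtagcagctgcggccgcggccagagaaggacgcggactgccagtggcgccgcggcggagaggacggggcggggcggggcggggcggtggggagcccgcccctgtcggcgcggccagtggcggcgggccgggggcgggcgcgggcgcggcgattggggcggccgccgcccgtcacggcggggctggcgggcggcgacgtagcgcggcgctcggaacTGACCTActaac
Bhlhe41: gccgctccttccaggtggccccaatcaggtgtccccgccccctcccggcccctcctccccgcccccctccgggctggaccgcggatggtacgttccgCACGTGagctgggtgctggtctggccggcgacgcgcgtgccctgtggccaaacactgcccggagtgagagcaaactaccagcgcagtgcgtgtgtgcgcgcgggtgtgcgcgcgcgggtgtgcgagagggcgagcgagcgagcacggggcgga
Ciart: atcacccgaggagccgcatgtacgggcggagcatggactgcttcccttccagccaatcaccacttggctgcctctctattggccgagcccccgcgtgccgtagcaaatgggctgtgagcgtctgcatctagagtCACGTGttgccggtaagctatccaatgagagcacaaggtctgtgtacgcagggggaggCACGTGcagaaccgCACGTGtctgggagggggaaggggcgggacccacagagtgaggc

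Library depth ranged from 22552581 to 46236771 estimated counts, of which mitochondrially encoded genes took 31.9% to 34.3% in the 6 libraries at 8 h and 22.6% to 32.5% in the other libraries. The third heart stored for 8 h stood apart from the other hearts on the first principal component, which held 54.5% of the variance, with 58.1 in LV and 83.3 in RV against at most 34.5 elsewhere. Results that rest on it are given with and without it. Y-linked transcripts summed to at most 6.78 CPM (counts scaled to library size) in both ventricles of 3 hearts, namely number 2 at 0 h, number 3 at 4 h and number 3 at 8 h, and to at least 133 CPM in the other libraries. The 7 cardiomyocyte markers summed to between 55300 and 67000 CPM at 0 and 4 h, and at 8 h to between 40800 and 49500 CPM in the LV and 28000 and 55100 CPM in the RV. Sums of the 5 fibroblast markers lay between 572 and 755 CPM at 0 h and between 674 and 1410 CPM at 8 h, and those of the 5 smooth muscle and pericyte markers between 663 and 884 CPM and between 802 and 1280 CPM. The 5 neutrophil markers summed to between 1.01 and 1.77 CPM in the LV at 0 h and between 9.83 and 18.3 CPM at 8 h. In the RV their sum lay between 0.982 and 2.51 CPM at 0 h and between 12.0 and 16.6 CPM at 8 h. The defining neutrophil marker Ly6g was at 0 in every library of 5 of the 6 groups, and the 5 lymphocyte markers stayed between 0.817 and 1.73 CPM in sum. The 4 erythroid markers ranged from 1.76 to 135 CPM and the 5 macrophage markers from 89.7 to 244 CPM. Sums of the 4 atrial myocyte markers ran from 53.5 CPM in the RV at 4 h to 800 CPM in the RV at 8 h. Those of the 5 endothelial markers lay between 577 and 887 CPM at 0 h, 384 and 702 CPM at 4 h, and 548 and 823 CPM at 8 h. These are bulk tissues, in which fewer cells of a type and less RNA per cell cannot be told apart, and the part of other cell types in the member values was not tested.

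Per unit length, Bhlhe40 was the most abundant of the 8 transcripts, with a mean of 85.3 TPM (the length-corrected unit of the files) over the 18 libraries and a range of 30.8 to 137.5 TPM. Nfil3 followed with a mean of 25.9 TPM, and Npas2 was the lowest with 1.63 TPM (0.426 to 3.32 TPM). Between these lay Bhlhe41 (10.2 TPM), Ciart (7.43 TPM), Arntl (5.49 TPM), Clock (4.53 TPM) and Rora (4.50 TPM). The ranking is of means over all conditions, and the ranges of neighbouring genes overlapped throughout. At 0 h the order was different, with Nfil3 in the RV (7.21 TPM) below Ciart (11.3 TPM) and Bhlhe41 (10.4 TPM), and with Arntl (2.22 TPM in the LV and 1.62 TPM in the RV) below Clock (4.70 and 3.68 TPM) and Rora (4.88 and 4.62 TPM). From here on, levels of a gene are CPM on a common library scale, and a gene is called changed where the Benjamini-Hochberg adjusted p of edgeR's quasi-likelihood test over all genes is under 0.1 and the fold change exceeds 1.5.

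Of the 8 members, 3 were called higher in the LV at 4 h (Arntl, Nfil3 and Npas2) and 2 at 8 h (Arntl and Npas2), and the same 3 genes as in the LV at 4 h were called higher in the RV at both times. None was called lower in these 4 comparisons. Over all genes tested, 2.4% were called higher and 0.398% lower in the LV at 4 h, and 5.46% and 1.26% at 8 h. In the RV, 6.17% were called higher and 3.91% lower at 4 h, and 13.0% and 5.26% at 8 h. The median log2 fold change of the members was 0.50 in the LV at 4 h, 0.02 in the LV at 8 h, 0.64 in the RV at 4 h and 0.68 in the RV at 8 h, against medians between -0.07 and 0.00 over all genes tested. No gene at all was called between 8 h and 4 h by edgeR in either ventricle (0%). The unadjusted p was under 0.05 for 1180 genes in the LV and 961 in the RV.

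**Figure D1:**
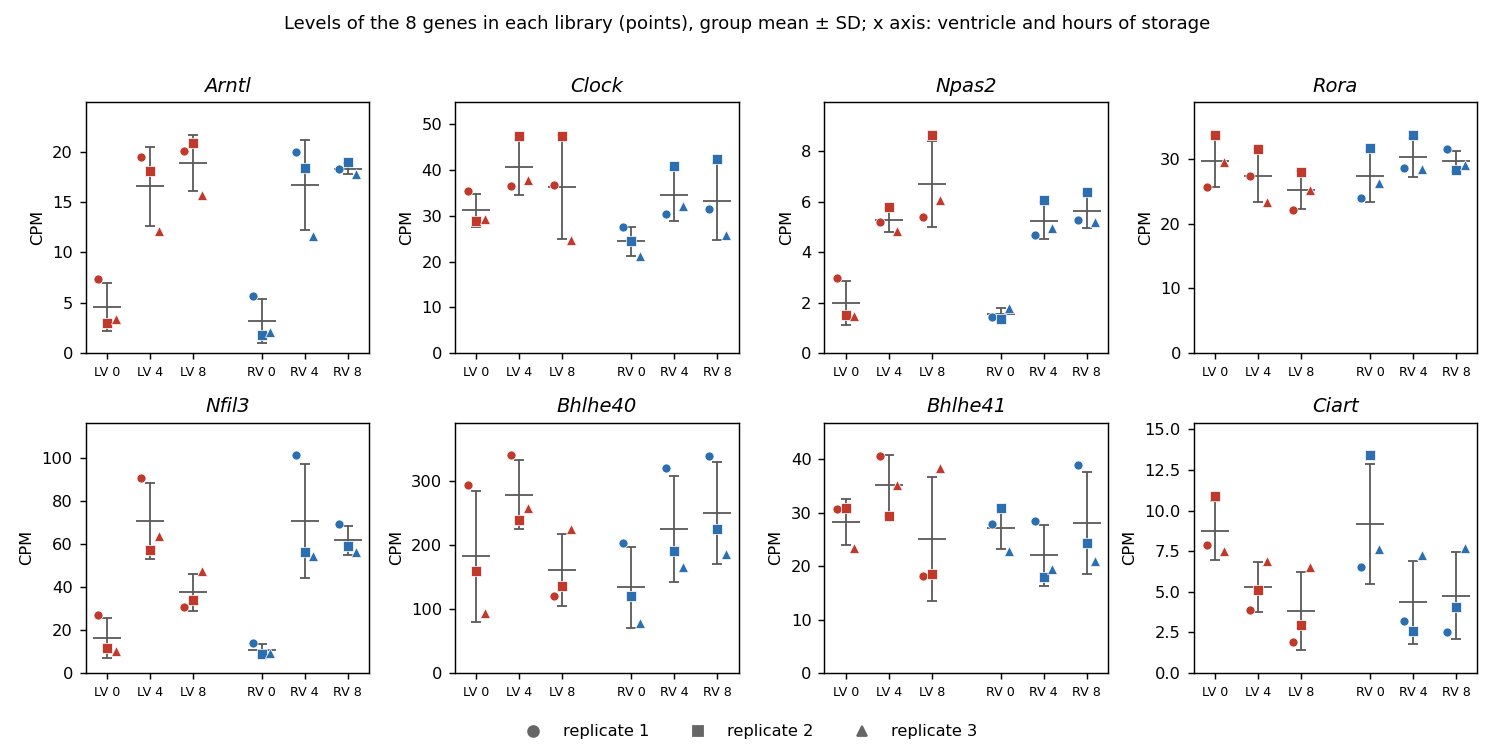
Level of each member in every library, in CPM on a linear axis, by ventricle and hours of storage. Points are libraries, with the marker giving the heart number, and bars are group means ± SD (n = 3). The stored groups of Arntl and Npas2 sit above every 0 h library, while those of Rora and Bhlhe41 overlap the 0 h libraries.

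Arntl, the obligate partner of the activator pair and the gene without which the clock stops, was the most strongly raised activator. Its level in the LV was 7.33, 2.94 and 3.39 CPM in hearts 1, 2 and 3 at 0 h, 19.5, 18.1 and 12.1 CPM at 4 h, and 20.1, 20.9 and 15.7 CPM at 8 h. In the RV it was 5.67, 1.76 and 2.12 CPM at 0 h, 20.03, 18.4 and 11.6 CPM at 4 h, and 18.3, 18.9 and 17.8 CPM at 8 h. Every stored library lay above every 0 h library, and among the 0 h hearts the first was highest in both ventricles. The group means were 4.55 ± 2.42, 16.6 ± 3.93 and 18.9 ± 2.79 CPM in the LV and 3.19 ± 2.16, 16.7 ± 4.47 and 18.3 ± 0.565 CPM in the RV (mean ± SD, n = 3 hearts each). By edgeR, Arntl was 3.61-fold higher at 4 h and 4.12-fold at 8 h in the LV (log2 fold change 1.85, SE 0.339, adjusted p = 0.0427, and 2.04, SE 0.341, adjusted p = 0.0191). In the RV it was 5.26-fold higher at 4 h and 5.76-fold at 8 h (log2 2.39, SE 0.411, adjusted p = 0.0142, and 2.53, SE 0.413, adjusted p = 0.00619). The 4 stored groups overlapped each other, and the difference between 8 h and 4 h was not called (log2 0.19 in the LV, adjusted p = 0.865, and 0.13 in the RV, adjusted p = 0.881). Without the third heart at 8 h, the 8 h changes were 2.14 in the LV (adjusted p = 0.0391) and 2.54 in the RV (adjusted p = 0.0120) on the log2 scale.

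The call of Arntl in the LV at 4 h depended on single libraries. It was lost without LV 0 h number 2 (log2 1.62, adjusted p = 0.204), LV 0 h number 3 (1.68, adjusted p = 0.190) or LV 4 h number 1 (1.72, adjusted p = 0.131), whereas without LV 0 h number 1 the change of Arntl was 2.39 (adjusted p = 0.00965). Within each of the 6 groups, the heart with low Y-linked transcripts had the lowest Arntl level of the 3, and with the Y-linked level as a covariate the 4 changes were 1.88, 2.10, 2.42 and 2.62 (log2) and each was still called.

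Npas2, which replaces CLOCK as the partner of ARNTL, was low in every library but moved with Arntl. It measured 2.97, 1.49 and 1.46 CPM in the LV at 0 h, 5.19, 5.79 and 4.82 CPM at 4 h, and 5.396, 8.64 and 6.08 CPM at 8 h. The RV held 1.43, 1.35 and 1.80 CPM at 0 h, 4.70, 6.07 and 4.95 CPM at 4 h, and 5.28, 6.40 and 5.19 CPM at 8 h. No stored library overlapped the 0 h libraries in either ventricle, and the stored groups overlapped each other. The change was 2.64-fold at 4 h and 3.36-fold at 8 h in the LV (log2 1.40, SE 0.301, adjusted p = 0.0678, and 1.75, SE 0.302, adjusted p = 0.0222), and 3.46-fold and 3.70-fold in the RV (log2 1.79, SE 0.202, adjusted p = 0.00403, and 1.89, SE 0.203, adjusted p = 0.00133). In counts, Npas2 was read from 40 to 255 estimated counts per library, the fewest of the 8 genes. Its call in the LV at 4 h was lost when any of 5 libraries was left out (0 h number 2 or 3, or any at 4 h; adjusted p of Npas2 between 0.144 and 0.295), and its call in the LV at 8 h when LV 0 h number 2 was left out (log2 1.58, adjusted p = 0.114). The RV calls of Arntl, Npas2 and Nfil3 held with each of the 9 RV libraries left out in turn.

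Clock, the usual partner of ARNTL, was expressed at a steadier level. Its group means in the LV were 31.2 ± 3.66, 40.6 ± 5.98 and 36.4 ± 11.3 CPM at 0, 4 and 8 h, and in the RV 24.5 ± 3.16, 34.5 ± 5.56 and 33.2 ± 8.46 CPM (mean ± SD, n = 3). In the LV, the 4 h libraries (36.5, 47.5 and 37.9 CPM) lay above those at 0 h (35.4, 28.9 and 29.4 CPM). The 3 libraries of the RV at 0 h (27.6, 24.6 and 21.3 CPM) lay below all those of the RV at 4 h (30.5, 40.9 and 32.2 CPM) but overlapped those at 8 h (31.4, 42.4 and 25.7 CPM). By edgeR the log2 fold change of Clock was 0.38 (SE 0.218) and 0.22 in the LV and 0.51 (SE 0.201) and 0.45 in the RV at 4 and 8 h, and none was called (adjusted p = 0.453, 0.556, 0.174 and 0.166). Hearts of the same number are different animals at each storage time, and the labels do not say what they share. In the RV their deviations correlated across times. There the fit with the heart number as a block gave Clock 0.50 (adjusted p = 0.0873) and 0.42 (adjusted p = 0.0917). Both values remained below the fold change of 1.5.

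Since Clock changed less than Npas2, the share of Npas2 in the summed partner transcripts shifted. In TPM, Npas2 made up 13.6% ± 7.61 of Clock plus Npas2 in the LV at 0 h, 25.9% ± 2.15 at 4 h and 35.0% ± 3.56 at 8 h (mean ± SD, n = 3), and in the RV 13.2% ± 1.90, 30.4% ± 0.436 and 34.5% ± 3.64. The LV libraries at 0 h gave 22.4%, 9.32% and 9.13%, and the lowest stored LV library 23.4%, so that the first 0 h heart came close to the stored range. Arntl stood at 0.389 ± 0.119 of the summed partners in the LV at 0 h and reached 1.00 ± 0.288 and 1.16 ± 0.258 at 4 and 8 h, with 0.368 ± 0.18, 1.09 ± 0.335 and 1.21 ± 0.281 in the RV. All stored libraries exceeded all 0 h libraries in this ratio, whose highest 0 h value was 0.567 and whose lowest stored value was 0.786. These ratios rest on the Arntl and Npas2 values above and are no separate result.

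Rora, the nuclear receptor that activates Arntl through the ROR element, held almost the same level in every group. The 18 libraries ran from 22.2 to 33.7 CPM, and the 6 group means from 25.2 ± 2.93 CPM in the LV at 8 h to 30.2 ± 3.01 CPM in the RV at 4 h (n = 3), with each group overlapping the next in rank. The log2 fold change against 0 h was -0.11 and -0.24 in the LV and 0.16 and 0.13 in the RV at 4 and 8 h (adjusted p = 0.800, 0.374, 0.628 and 0.538).

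**Figure D2:**
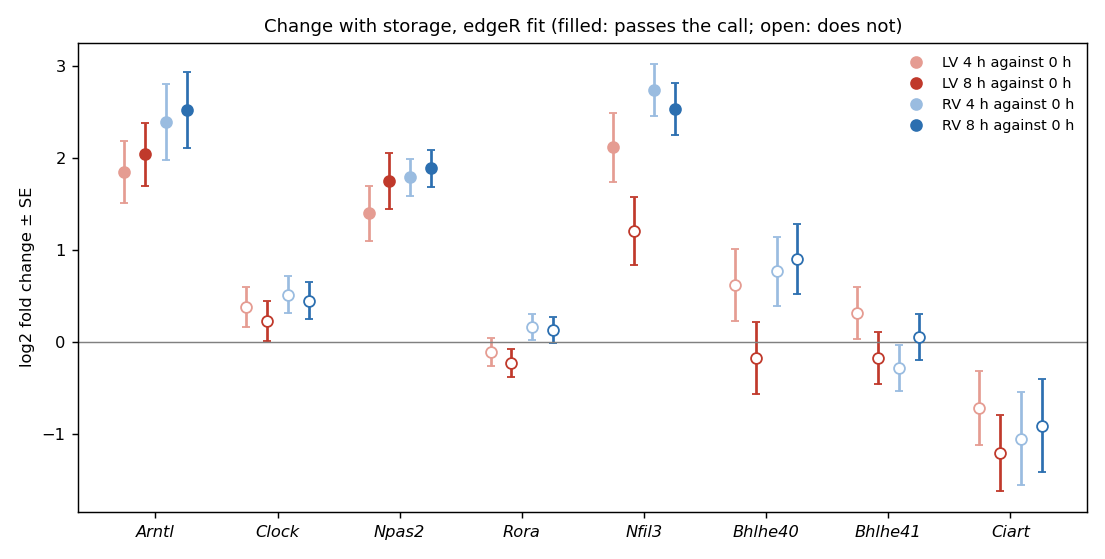
Log2 fold change of each member against 0 h in LV and RV after 4 and 8 h (vertical axis), with bars of 1 SE from the edgeR fit and filled points for called genes. Arntl, Npas2 and Nfil3 lie above 1 in each comparison, with Nfil3 in the LV at 8 h (1.21) not called, whereas Rora stays between -0.24 and 0.16.

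Nfil3, the bZIP repressor that competes for the D-box, had the largest increase of all members at 4 h in both ventricles. The LV held 26.9, 11.6 and 10.1 CPM at 0 h, 90.5, 57.2 and 63.9 CPM at 4 h, and 30.9, 34.1 and 47.3 CPM at 8 h. The RV held 13.9, 8.94 and 9.18 CPM at 0 h, 101.2, 56.1 and 54.5 CPM at 4 h, and 69.5, 59.1 and 56.3 CPM at 8 h. In the LV every 8 h library lay below every 4 h library and above every 0 h library, whereas in the RV the 8 h libraries fell inside the range of those at 4 h. In rank order the group means were 70.6 ± 26.5 CPM (RV 4 h), 70.5 ± 17.6 (LV 4 h), 61.6 ± 6.95 (RV 8 h), 37.4 ± 8.71 (LV 8 h), 16.2 ± 9.32 (LV 0 h) and 10.7 ± 2.79 (RV 0 h), with n = 3 each. Only the steps from RV 8 h to LV 8 h and from LV 8 h to LV 0 h separated groups without overlap.

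By edgeR, Nfil3 was 4.34-fold higher in the LV at 4 h (log2 2.12, SE 0.375, adjusted p = 0.0383). The call was lost without LV 0 h number 2 (log2 1.93, adjusted p = 0.207), LV 0 h number 3 (1.87, adjusted p = 0.165), LV 4 h number 1 (1.90, adjusted p = 0.125) or LV 4 h number 3 (2.18, adjusted p = 0.108). In the LV at 8 h it was 2.31-fold higher and narrowly missed the threshold (log2 1.21, SE 0.366, adjusted p = 0.103). Its value there was 1.79 (adjusted p = 0.0192) without LV 0 h number 1, 1.31 (adjusted p = 0.0951) without LV 8 h number 2, and 0.98 (adjusted p = 0.269) without LV 8 h number 3. In the RV it was 6.68-fold higher at 4 h (log2 2.74, SE 0.285, adjusted p = 0.00306) and 5.81-fold at 8 h (log2 2.54, SE 0.282, adjusted p = 0.00139). The LV difference between 8 h and 4 h was -0.91 on the log2 scale (SE 0.362) and was not called (adjusted p = 0.595), although the groups did not overlap.

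The activators that NFIL3 competes with moved the other way. The summed TPM of Dbp, Tef and Hlf was 107, 200 and 156 in the LV at 0 h and between 37.7 and 61.2 in the 6 stored LV libraries. In the RV it was 139, 232 and 156 at 0 h and between 32.3 and 69.8 after storage, so stored and unstored libraries did not overlap in either ventricle. As a ratio in TPM, Nfil3 to the summed PAR bZIP transcripts was 0.168, 0.0411 and 0.0414 in the LV at 0 h, 1.42, 0.810 and 0.622 at 4 h, and 0.476, 0.464 and 0.465 at 8 h. The RV gave 0.0714, 0.0276 and 0.0337 at 0 h, 1.41, 0.733 and 0.456 at 4 h, and 1.13, 0.751 and 0.752 at 8 h. At 8 h the 3 RV ratios lay above the 3 LV ratios, whereas at 4 h the ventricles overlapped. Each of the 3 PAR bZIP genes was called lower in all 4 storage comparisons, though at 4 h the count was 0 without 0 h number 2 of either ventricle, and 1 without 0 h number 3 of either ventricle or without LV 4 h number 1.

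**Figure D3:**
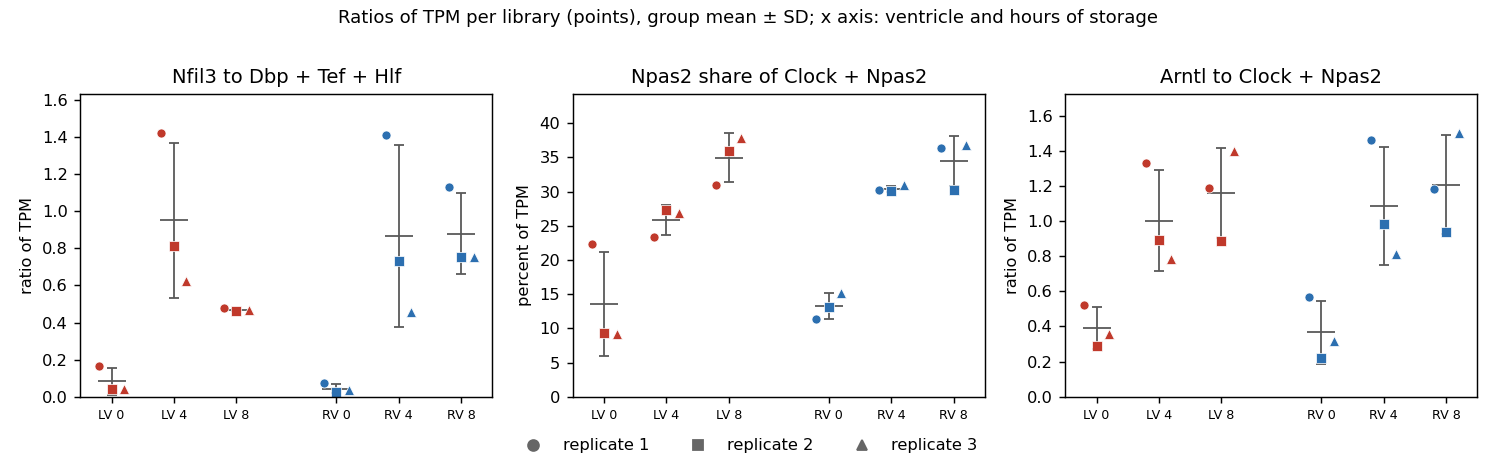
Ratios of transcript levels in TPM for every library (points, markers giving the heart number) with group means ± SD (n = 3), by ventricle and hours of storage: Nfil3 to the sum of Dbp, Tef and Hlf, the share of Npas2 in Clock plus Npas2, and Arntl to Clock plus Npas2. The first ratio is at most 0.168 at 0 h and at least 0.456 after storage.

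Bhlhe40, an E-box competitor that is also induced by hypoxia and cytokines in many cells, was abundant and varied widely between hearts. In the LV it measured 293.8, 158.7 and 93.02 CPM at 0 h, 339.5, 238.1 and 257.1 CPM at 4 h, and 120.4, 135.5 and 224.6 CPM at 8 h. In the RV it measured 202.4, 119.7 and 78.6 CPM at 0 h, 319.1, 189.5 and 166.1 CPM at 4 h, and 338.4, 225.0 and 185.9 CPM at 8 h. The 0 h libraries spanned a wide range in both ventricles, with heart 1 highest and heart 3 lowest, and overlapped both stored groups of the LV. In the RV, the 0 h range overlapped those at 4 and 8 h through heart 1 alone.

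By edgeR with all libraries and without a block, Bhlhe40 was called in no storage comparison, with log2 fold changes of 0.62 (SE 0.392, adjusted p = 0.509) and -0.18 (adjusted p = 0.805) in the LV and 0.77 (SE 0.381, adjusted p = 0.294) and 0.91 (SE 0.382, adjusted p = 0.144) in the RV at 4 and 8 h. DESeq2, also without a block, called Bhlhe40 higher in the RV at 8 h (0.92, adjusted p = 0.0794). With length offsets DESeq2 did not call it there (0.85, adjusted p = 0.132). In the RV, where deviations of hearts of the same number correlated across times, Bhlhe40 was higher in the stored heart of each number. These hearts are different animals, so that a block by number is inferred from these same data. The fit with that block called Bhlhe40 at 4 h (log2 0.81, SE 0.164, adjusted p = 0.0230) and at 8 h (0.97, SE 0.164, adjusted p = 0.00684). That fit called 8.45% of all genes higher at 4 h and 15.5% at 8 h. Leaving out RV 0 h number 1 gave 1.34 at 8 h by edgeR without the block (adjusted p = 0.0628), which is past both thresholds. In the LV, Bhlhe40 was lower in every 8 h library than in every 4 h library, with a log2 difference of -0.79 that was not called (adjusted p = 0.623), and its 8 h change against 0 h turned from -0.18 to 0.35 without LV 0 h number 1.

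Bhlhe41 is the paralog of Bhlhe40. Its group means were 28.3 ± 4.31, 35.1 ± 5.65 and 25.0 ± 11.6 CPM in the LV and 27.2 ± 4.03, 22.0 ± 5.68 and 28.1 ± 9.52 CPM in the RV at 0, 4 and 8 h (mean ± SD, n = 3), and every group overlapped its neighbours in rank. The spread was largest in the LV at 8 h, where hearts 1, 2 and 3 gave 18.1, 18.5 and 38.4 CPM. None of its storage changes was called (log2 0.31 and -0.18 in the LV, -0.29 and 0.05 in the RV; adjusted p = 0.675, 0.728, 0.621 and 0.895).

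Ciart, the E-box repressor with 3 E-boxes in its own promoter, was the only member whose estimate lay below 0 in all 4 storage comparisons. Its level in the LV was 7.91, 10.9 and 7.53 CPM at 0 h, 3.86, 5.14 and 6.92 CPM at 4 h, and 1.94, 2.98 and 6.56 CPM at 8 h. The RV gave 6.52, 13.4 and 7.61 CPM at 0 h, 3.19, 2.61 and 7.27 CPM at 4 h, and 2.51, 4.09 and 7.71 CPM at 8 h. All 6 stored LV libraries lay below the 3 unstored ones, while in the RV the third heart of each stored group reached the range of the 0 h libraries. The log2 fold change was -0.72 (SE 0.401) and -1.21 (SE 0.410) in the LV and -1.05 (SE 0.508) and -0.91 (SE 0.507) in the RV, and none passed the test (adjusted p = 0.438, 0.129, 0.275 and 0.241). With the number as a block in the RV, the value was -1.07 at 8 h (adjusted p = 0.0940), which is past both thresholds, and -1.16 at 4 h (adjusted p = 0.117). That fit called 8.81% of all genes lower at 8 h. Without the third heart stored for 8 h, it was -1.84 in the LV (adjusted p = 0.0375, called) and -1.48 in the RV (adjusted p = 0.123).

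In each of the 6 groups the heart with low Y-linked transcripts had the highest Ciart level of the 3, the mirror image of Arntl. Of the 10 listed repressors and PAR bZIP factors, Per3, Cry2, Nr1d2 and Dbp were also highest in these hearts in 6 of 6 groups. With the Y-linked level as a covariate, Ciart was called lower in the LV at 8 h (adjusted p = 0.0220) and in the RV at 4 h (log2 -1.13, adjusted p = 0.0199) and 8 h (-0.98, adjusted p = 0.0193). The labels give neither the sex of a heart nor its hour of excision, and the part of either in these orders was not tested.

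The ventricles of a heart were compared next, which asks whether the members responded alike on the left and on the right. LV and RV libraries of the same storage time and number were taken as the same heart. The labels do not state this pairing. It was inferred from deviations from the group means, which correlated in each of the 9 pairs. Treated as unpaired, no member was called between LV and RV at any time by edgeR, which called 0.159% of 15093 genes in either direction at 0 h, 0.0133% at 4 h and 0.0331% at 8 h. Nor was any member called for its storage change, where no gene was called at 4 h or at 8 h (0%, although the unadjusted p was under 0.05 for 158 and 628 genes). Within hearts, that is with the heart as a block, Nfil3 and Bhlhe40 were called lower in the LV at 8 h, against 6.53% of all genes. The 8 h change of the same pair was called smaller in the LV than in the RV, against 4.72% of all genes.

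The LV to RV ratio of Nfil3 was 1.94, 1.30 and 1.10 in the 3 hearts at 0 h, 0.895, 1.02 and 1.17 at 4 h, and 0.445, 0.577 and 0.841 at 8 h. All 3 hearts at 0 h were above 1 and all 3 at 8 h below 1. Within hearts, the log2 level of Nfil3 in the LV minus that in the RV was -0.74 at 8 h (SE 0.165, adjusted p = 0.00916), and the 8 h change in the LV minus that in the RV was -1.26 (SE 0.246, adjusted p = 0.0117). Without the block, the values were -0.72 (SE 0.343, adjusted p = 0.454) and -1.33 (SE 0.487, adjusted p = 1.00). With each heart left out in turn, the difference in change lay between -1.53 and -0.99 and was called every time, whereas the difference at 8 h lay between -0.98 and -0.52 and fell under the fold threshold without heart 1 at 8 h (-0.52, adjusted p = 0.0903).

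For Bhlhe40 the ratio was 1.45, 1.33 and 1.18 at 0 h, 1.06, 1.26 and 1.55 at 4 h, and 0.356, 0.602 and 1.21 at 8 h, so that hearts 1 and 2 fell below 1 at 8 h and heart 3 did not. The log2 difference within hearts (LV minus RV) was -0.65 at 8 h (SE 0.243, adjusted p = 0.0748) and the difference in change -1.05 (SE 0.339, adjusted p = 0.0913). The former was lost without any of 4 hearts (0 h number 2, 4 h number 2, 8 h number 1 or 8 h number 2) and the latter without any of the 9 hearts except number 3 at 8 h. Without heart 3 at 8 h the values of Bhlhe40 were -1.11 (adjusted p = 0.000597) and -1.52 (adjusted p = 0.000802), and without the other hearts the change lay as near to 0 as -0.63.

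Bhlhe41 showed the same order of hearts at 8 h, with LV to RV ratios of 0.464, 0.763 and 1.82, after 1.10, 1.00 and 1.02 at 0 h and 1.43, 1.63 and 1.81 at 4 h. It was not called in the ventricle comparison at 8 h with all hearts, and without heart 3 at 8 h its difference within hearts was -0.76 (adjusted p = 0.00232) and its difference in change -0.83 (adjusted p = 0.0104). Heart 3 at 8 h is the heart that stood apart on the first principal component and had low Y-linked transcripts.

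Among the activators, Arntl, Clock and Rora were higher in the LV of all 3 hearts at 0 h, and Arntl lay near equality after storage. Nfil3, Bhlhe40 and Bhlhe41 were higher there too, with Bhlhe41 near equality in heart 2 (1.00). Arntl gave ratios of 1.29, 1.67 and 1.60 at 0 h, 0.973, 0.985 and 1.04 at 4 h, and 1.10, 1.10 and 0.881 at 8 h. Within hearts its LV level at 0 h was higher by 0.55 (log2, SE 0.113, adjusted p = 0.0328), and its 8 h change in the LV minus that in the RV was -0.51 (adjusted p = 0.0583), each under the fold threshold. Clock had ratios of 1.29, 1.17 and 1.38 at 0 h and between 0.965 and 1.20 after storage, with a difference within hearts at 0 h of 0.35 (SE 0.0718, adjusted p = 0.0290), also under the fold threshold. Npas2 ranged from 0.814 to 2.08 at 0 h. Rora gave 1.07, 1.06 and 1.12 at 0 h and lay below 1 in every heart at 4 and 8 h. Over all 9 hearts, Rora ranged from 0.703 to 1.12 and Ciart from 0.729 to 1.97. The log2 difference of Rora within hearts at 8 h was -0.24 (LV minus RV, adjusted p = 0.0693), again under the fold threshold.

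**Figure D4:**
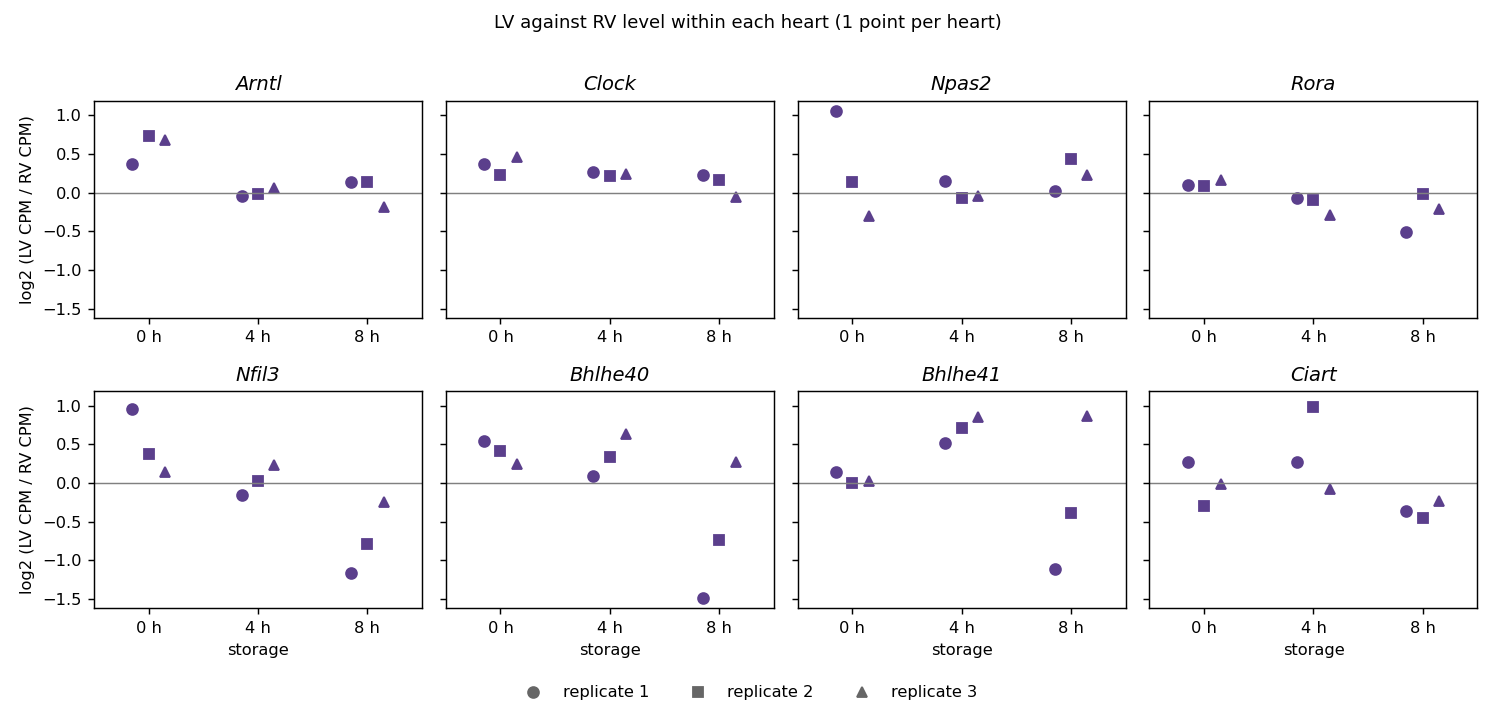
Log2 ratio of the LV to the RV level (CPM) of each member in each of the 9 hearts, by storage time, where markers give the heart number and the line at 0 marks equal levels. Nfil3 lies above 0 in the 3 hearts at 0 h and below 0 in the 3 hearts at 8 h, and at 8 h Bhlhe40 and Bhlhe41 run from below 0 in hearts 1 and 2 to above 0 in heart 3.

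At the level of transcripts, most members were read from 1 dominant isoform, so that their gene sums are those of the main coding transcript. Nfil3 has a single annotated transcript. As shares of the estimated counts of a gene, the leading transcript took 73.1% to 98.1% of Arntl, 85.8% to 96.3% of Rora and 84.7% to 93.9% of Bhlhe41 over the 18 libraries, and at least 94.4% of Npas2 and 88.0% of Bhlhe40. A retained-intron transcript took 8.3% ± 2.4 of Bhlhe40 in the LV at 0 h and 4.9% ± 2.1 and 5.6% ± 2.1 at 4 and 8 h. In the RV its share was 7.6% ± 3.4, 3.9% ± 1.2 and 3.9% ± 1.8 (mean ± SD, n = 3), with ranges that overlapped within a ventricle except between the RV at 0 and 4 h. Clock was split between 2 coding transcripts, which took 33.4% to 83.7% and 15.7% to 65.0%, and the leading transcript of Ciart took 46.4% to 82.7%. Such splits between isoforms that share most of their sequence are estimates of the quantifier and vary between libraries of a group.

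The rest of the clock pathway is given by lists drawn up by role. Of the 7 repressors, 2 to 3 were called lower and 0 to 1 higher, depending on the comparison. The lower count in the LV at 8 h was 3, with Nr1d2 beside the pair named next, and it was 1 without LV 0 h number 2 and 5 without LV 8 h number 3. Per3 and Per2, the Period repressors, were called lower in all 4 comparisons, at 8 h with -2.45 (adjusted p = 0.00512) and -1.73 (adjusted p = 0.0234) in the LV and -2.63 (adjusted p = 0.00260) and -1.28 (adjusted p = 0.00931) in the RV on the log2 scale. At 4 h the lower count of repressors fell from 2 to 1 without number 2 or 3 of the LV at 0 h or at 4 h. In the RV at 4 h it fell likewise without RV 0 h number 2. Cry1 was called higher in the RV at 4 and 8 h (0.88 and 0.76) and not in the LV (0.71 and 0.58). The RV call of Cry1 at 4 h was lost without any single RV library at 0 h. Its RV call at 8 h was lost without number 1 or 3 at 0 h or number 1 or 3 at 8 h. Without number 3 at 8 h it was 0.72 (adjusted p = 0.112). The difference of its change between the ventricles was not called by edgeR (log2 difference -0.18 at 8 h, SE 0.326, adjusted p = 1.00). Of the 3 PAR bZIP activators, all were called lower at 8 h, with log2 changes of -2.33 in the LV and -2.74 in the RV for Dbp, -1.26 and -1.54 for Hlf, and -1.23 and -1.49 for Tef.

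Of 16 other E-box and ROR-element factors and helix-loop-helix inhibitors, 2 were called higher in the LV at 8 h (Id2 and Id3) and 4 in the RV (Id2, Id3, Id4 and Myc), against 5.46% and 13.0% of all genes, with none lower. Id2 and Id3, which encode inhibitors that bind helix-loop-helix partners without binding DNA, had log2 changes of 1.29 and 0.71 in the LV and 1.44 and 1.04 in the RV. Without the third heart at 8 h, Id2 was still called (1.06 and 1.495) and Id3 was called in neither ventricle (0.42, adjusted p = 0.1999, and 0.60, adjusted p = 0.1835). Id4 in the RV was then not called either (0.72, adjusted p = 0.114). With a library left out, the LV count ranged from 0 to 3 and the RV count from 2 to 4. The LV count fell below 2 without LV 0 h number 2 or 3, any LV library at 4 h, or LV 8 h number 1 or 3. Among the 29 tested of 30 kinases, ubiquitin ligases and cofactors of the clock, 1 was called higher in the LV at 8 h (Timeless) and 4 in the RV (Csnk1d, Sfpq, Sirt1 and Timeless), counts close to the same 5.46% and 13.0% of all genes. Timeless, a replication fork protein linked to the clock, varied widely at 8 h, from 41.96 to 191.9 CPM in the LV and from 60.3 to 267.5 CPM in the RV. Its log2 change was 2.21 (SE 0.639) in the LV and 3.23 (SE 0.663) in the RV, and without the third heart at 8 h it was 1.11 (adjusted p = 0.251, not called) and 2.17 (adjusted p = 0.0193). The counts of this list ranged from 0 to 1 in the LV and from 2 to 4 in the RV with a library left out.

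Of 13 clock-controlled output genes of the heart, Wee1 was called lower in the LV at 8 h, against 1.26% of all genes. In the RV at 8 h Kcnh2, Kcnip2 and Klf15 were called lower, against 5.26% of all genes, and Noct higher, against 13.0%. Without the third heart at 8 h, Wee1 in the LV (-0.91, adjusted p = 0.0240) and Noct in the RV (1.21, adjusted p = 0.0188) were still called, and the 3 lower genes of the RV were not (-0.63, -0.54 and -0.61). With a library left out, the lower count in the LV was 1 only without LV 8 h number 3. It was 0 without any other LV library, so the call of Wee1 was lost there. In the RV the lower count ranged from 0 to 4, and the higher count stayed at 1. The medians of the repressors at 8 h were -0.68 in the LV and -0.13 in the RV, and those of the output genes -0.25 and -0.46, against -0.02 and -0.07 over all genes tested.

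Across the 18 libraries, the genes whose profiles came nearest to each member were found by the root-mean-square (RMS) difference of centred log2 CPM, where 0 would mean identical profiles. Nfil3 was nearest to Myc (RMS 0.277) and Trib1 (0.368), against an RMS of 1.13 for the profile of Nfil3 itself. Myc, an E-box factor too, had mean levels of 24.7, 78.7 and 56.3 CPM in the LV and 13.7, 83.1 and 99.2 CPM in the RV. Arntl was nearest to Lcp2 (0.359) and Prr7 (0.368), and Npas2 to Lcp1 (0.334) and Fam124b (0.341). Lcp1 and Lcp2 encode an actin-bundling and an adaptor protein of leukocytes, with Lcp2 rising from 3.75 CPM at 0 h to 18.6 CPM at 8 h in the LV and from 4.43 to 26.0 CPM in the RV. Bhlhe40 was nearest to Arrdc3 (0.261) and Dnajb4 (0.296), Clock to Traf3 (0.145) and Gfod1 (0.155), and Rora to Togaram1 (0.088) and Nup155 (0.103), where the profiles of Clock (0.320) and Rora (0.168) were themselves the flattest among the members. Ciart was nearest to Dixdc1 (0.333) and Rnf207 (0.373) and Bhlhe41 to Fhad1 (0.223) and the pseudogene Gm5898 (0.268), both of which were under 1 CPM in every group mean. These libraries share storage times and hearts, so that likeness is a description of these profiles alone.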

How the data were processed

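RNA-seq was made from 18 libraries (stranded kit, mRNA selection). The authors quantified reads with kallisto against GRCm38 transcripts and deposited, per library, estimated counts and TPM for 111462 transcripts. The precision of each value is limited by 3 hearts per group and by depth, 22552581 to 46236771 counts. Here the deposited estimated counts were summed per gene with GENCODE M21, which lacked 1259 transcripts (at most 0.383% of counts), and rounded. TPM deposited by the authors were summed per gene for levels between genes. edgeR 4.0.16 (R 4.3.3; filterByExpr, TMM, quasi-likelihood test over all genes tested) compared storage times within the 9 libraries of a ventricle and LV with RV in all 18, with a call at adjusted p under 0.1 and fold change over 1.5. After the main fits, the same functions were also run on counts simulated from these libraries with a capped spread, and no result here rests on that run. Alternatives were DESeq2 1.42.0, other size factors, no filter, length offsets, a Y-linked covariate, a replicate block, all libraries in the fit, a stricter threshold and left-out libraries, while leaving out hearts with the block was added after seeing the data.

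Deviations from the group means correlated between LV and RV of the same storage time and number in all 9 pairs (r from 0.559 to 0.844, mean 0.722). By the methods, both ventricles of a heart were measured before LV and RV tissue was collected. Which libraries share a heart is not stated, so the pairing by number is inferred from these same data. The mean for other numbers was -0.339. Since the deviations of the 3 libraries of a group sum to 0, that negative value follows from the positive one and is no separate support. Between storage times, where hearts are different animals, equal numbers correlated in the RV against 0 h (lowest r 0.155 at 4 h and 0.223 at 8 h). They also did between 4 h and 8 h in each ventricle (lowest r 0.514 in the LV and 0.447 in the RV). In the LV against 0 h, r ran from 0.062 to 0.312 at 4 h and from -0.042 to 0.122 at 8 h. The labels do not say what equal numbers share across times, so that a block across times is inferred from these same data. The text names all 8 members, up to 3 genes per pathway list that were called alike in both ventricles at 8 h with the largest change, and the 2 nearest genes of each member (log2 CPM with 0.5 added), along with the other genes of a list called at 8 h and Cry1, which were picked after their values were seen. Members and lists were chosen with earlier results of these data known. The labels number replicates and name no heart. Each replicate number of a storage time was taken as a separate heart, with the LV and RV of that number paired.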

Additional observations from a re-analysis of the deposited data

Results flagged for a closer look

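The 8 h storage change of 2 members differed between the ventricles in a test of the difference itself, made within hearts. For Nfil3 the log2 change in the LV minus that in the RV was -1.26 (SE 0.246, adjusted p = 0.0117 by edgeR with the heart as a block), and it was called with each of the 9 hearts left out in turn. For Bhlhe40 it was -1.05 (SE 0.339, adjusted p = 0.0913), and it was lost in 8 of the 9 fits with a heart left out. Without the block the adjusted p was 1.00 for both genes. The part of cell types, sex and hour of excision in these differences was not tested.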

How the results depend on the processing

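Of 300 member values under other settings, 278 kept their direction and their side of the threshold, 20 passed the threshold only under the alternative, 1 no longer passed and 1 reversed. Among the 414 values with a library or heart left out, these counts were 379, 4, 26 and 5. The reversed values were Rora in the LV at 4 h with DESeq2 and length offsets (0.0700), and, with libraries left out, Bhlhe40 in the LV at 8 h (-0.52 to 0.35) and Bhlhe41 at 8 h in the LV (-0.639 to 0.0462) and in the RV (-0.23 to 0.22). The number of members called lower rose from 0 to 1 in the LV at 8 h with DESeq2, DESeq2 with length offsets, the Y-linked covariate or the replicate block, in the RV at 4 h with the Y-linked covariate, and in the RV at 8 h with the Y-linked covariate or the block; in each case the gene was Ciart. The same block raised the members called lower in the LV than in the RV at 8 h, and in their 8 h change, from 0 to 2 each. Nfil3 in the LV at 8 h, not called in the report, was called in 6 of 8 other settings, among them the block (1.33, adjusted p = 0.0515), where equal numbers did not pair the LV at 8 h with the LV at 0 h. With a library left out, members called higher ranged from 0 to 3 in the LV at 4 h, 1 to 3 in the LV at 8 h, 3 to 3 in the RV at 4 h and 3 to 4 in the RV at 8 h, members called lower in the LV at 8 h from 0 to 1, and within hearts from 0 to 3 at 8 h and from 1 to 3 for the change. At an adjusted p under 0.05 Npas2 in the LV at 4 h was no longer called. In the RV the block also raised the members called higher from 3 to 4 at 4 h and at 8 h, the added gene being Bhlhe40 (0.81 and 0.97, adjusted p = 0.0230 and 0.00684), and it changed no further call of a member. DESeq2 without a block raised that count from 3 to 4 at 8 h too, again through Bhlhe40 (0.92, adjusted p = 0.0794). The causes of these shifts were not tested. With 3 hearts per group, calls near the threshold turn on single hearts, and Npas2 rests on the fewest counts.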
